A study of Sus scrofa domesticus with 30 samples.

Results

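The 9 genes described here mark antibody-making cells and the receptor that carries antibody across an epithelium: CD79A, CD79B, MS4A1 and PAX5 for B cells, POU2AF1, JCHAIN, MZB1 and TNFRSF17 for plasma cells, and PIGR for transport. They were chosen by name, and 9 of the 28224 gene models of the mRNA table carry 1 of these symbols. The tissue was endometrium, the lining of the uterus, cut out midway along the horn, from young female pigs (gilts; crosses of Landrace, Yorkshire and Duroc) on pregnancy day 13. The low iCrit group held 7 gilts and the high iCrit group 8. Immunocrit (iCrit) is a blood measure of the immunoglobulin that a newborn has absorbed from colostrum, and the gilts were placed in their groups by it on the first day after birth. All of them were born in 1 herd, raised on the same diets, inseminated as adults and pregnant at slaughter, so the groups differ by label in neonatal iCrit alone. The labels give no colostrum intake, litter or sire. Each gilt gave 1 mRNA library and 1 small RNA library of bulk tissue.

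A B cell senses antigen through a surface antibody held in the membrane with CD79A and CD79B, and it can mature into a plasma cell that secretes antibody. In mucosal tissue, plasma cells beneath the epithelium join IgA (or IgM) units with the J chain, the product of JCHAIN. Epithelial cells bind such joined antibody with the polymeric immunoglobulin receptor, the product of PIGR, and carry it to the lumen. The uterus is one of the mucosal sites where this transport takes place. Fetal pigs receive almost no maternal antibody through the placenta, which makes colostrum the main source of antibody for a newborn piglet.

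The deposited values are normalized and linear, with a floor of 1. Low values rose in steps of a size particular to the library, which is read here as the worth of 1 sequenced fragment. The steps gave estimated depths of 11.8 to 31.7 M fragments, lowest in high iCrit replicate 7 and highest in low iCrit replicate 4. Values are not scaled to transcript length, so levels are compared between gilts and not between genes. The lowest values of the epithelial markers EPCAM and KRT19 in any library were 13408 and 3032, as the endometrial label would have it. High iCrit replicate 2 was often the highest library in lymphoid genes. Of the 21 T and NK cell markers in the table, 13 had their highest value of the 15 libraries there and 3 in high iCrit replicate 8. Replicate 2 was among the 2 highest libraries for 17 of these markers, and replicate 8 for 14. The CXCL13 value of high iCrit replicate 2 was 3163, against 4.82 to 66.6 in the 14 other libraries.

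No member differed between low and high iCrit endometrium beyond the spread between gilts. With limma on log2(value + 1) and Benjamini-Hochberg adjustment over the 16819 genes tested, 0 of the 9 members had an adjusted p under 0.05, and the background was 0.0% of all genes tested. At an unadjusted p under 0.05 there were also 0 of 9 members, where 7.13% of all genes tested (1200 genes) stood. The difference was above 0 for 5 members and below 0 for 4, and the low and high iCrit values overlapped for all 9. All 9 passed the filter on low values. In bulk tissue, fewer cells of a type and less RNA per cell cannot be told apart. A p that misses the threshold does not show that the groups are alike, so the 95% intervals of the differences are given with each gene.

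**Figure D1:**
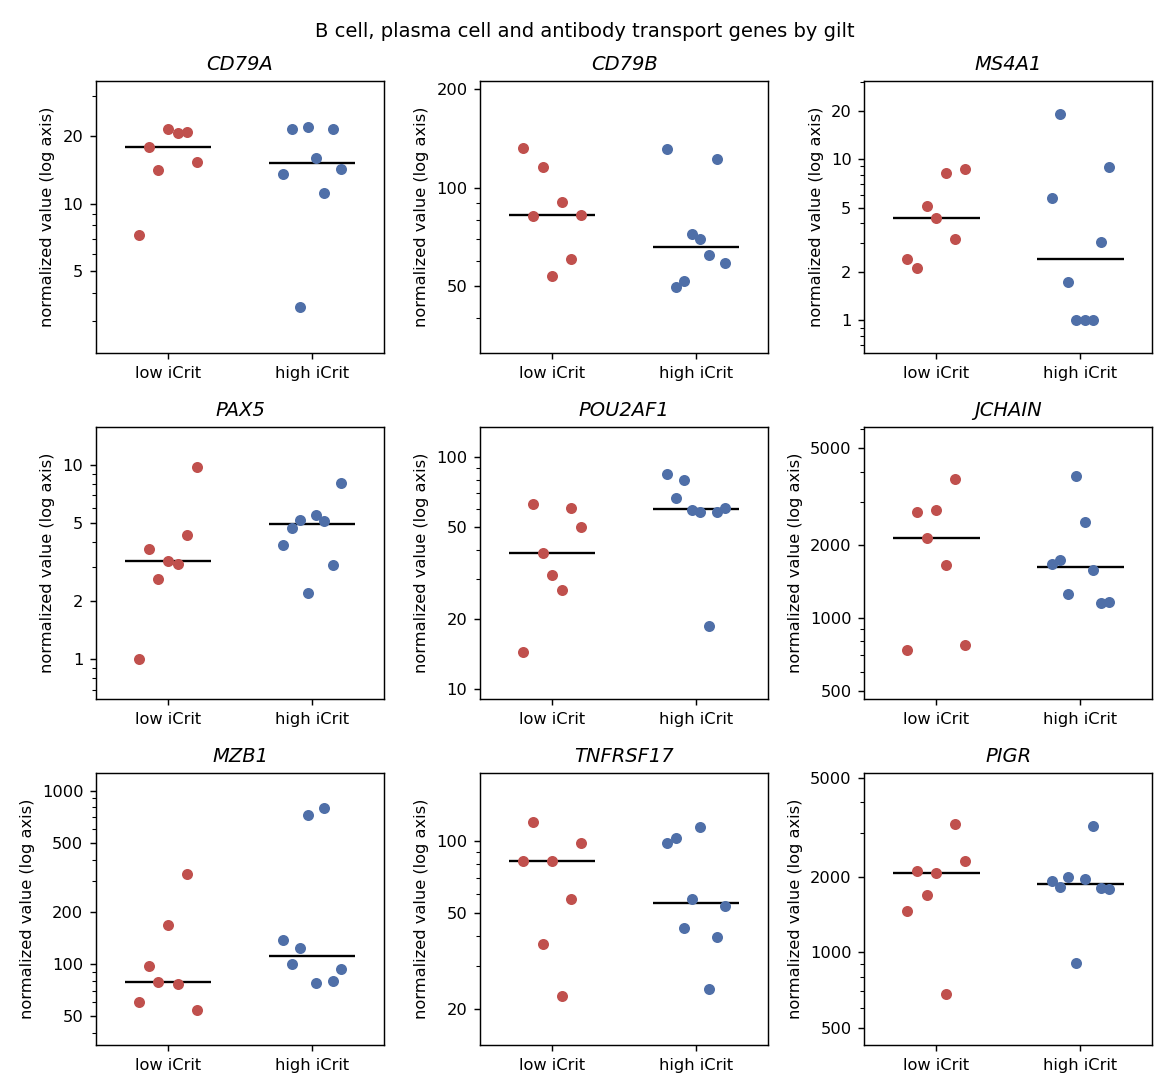
Normalized value of each gene (log axis) in 7 low iCrit gilts (left, red) and 8 high iCrit gilts (right, blue). Each point is 1 gilt and the line is the group median; the groups overlap in all 9 panels, and MZB1 has 2 high iCrit gilts at 722 and 793 above the others.

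CD79A and CD79B encode the signalling partners of the B cell antigen receptor. CD79A (chromosome 6, 49996116 to 49999294, minus strand, coordinates equal to those of RefSeq on Sscrofa11.1) had values of 7.23, 17.9, 14.2, 21.5, 20.6, 20.7 and 15.2 in the low iCrit gilts, in the order of replicates 1 to 7. In the high iCrit gilts its values were 13.5, 21.4, 3.46, 21.9, 15.99, 11.2, 21.5 and 14.3, in the order of replicates 1 to 8. All but 1 gilt in each group lay between 11.2 and 21.9, and low iCrit replicate 1 and high iCrit replicate 3 lay below the rest of their groups. The log2 difference, low minus high iCrit, was 0.19 ± 0.35 (SE; 95% interval -0.54 to 0.93; adjusted p = 0.941; exact permutation p = 0.619). Depth limits this gene, because a library held only 2 to 20 estimated CD79A fragments, and all 15 together held 129.5 (some values are fractions of a step).

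CD79B (chromosome 12, 15052966 to 15056441, plus strand) ranged from 53.7 to 133 in the low iCrit gilts, with a median of 82.7, and from 50.0 to 132 in the high iCrit gilts, with a median of 66.2. It was the member whose level varied least between gilts, with a highest value 2.65 times the lowest. The groups averaged 88.3 ± 28.2 among low iCrit gilts and 77.6 ± 31.8 among high iCrit gilts (SD, n = 7 and 8), which is a log2 difference of 0.21 ± 0.26 (SE; 95% interval -0.35 to 0.77; adjusted p = 0.896). With low iCrit replicate 1 left out it was 0.11, and with high iCrit replicate 1 left out it was 0.33. The libraries held 21 to 90 estimated CD79B fragments each. The products of CD79A and CD79B form 1 complex, and no correlation of their levels was detected across the 15 gilts (Pearson r = -0.01, permutation p = 0.984, and Spearman rho = -0.16). With 2 to 20 estimated CD79A fragments in a library, counting error limits what this r can show. Within groups, r was -0.81 in the low iCrit gilts (exact permutation p = 0.0115) and 0.34 in the high iCrit gilts (exact permutation p = 0.433); these within-group values were not adjusted over the pairs, and the difference between the groups was not tested.

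MS4A1 encodes CD20, a surface protein of mature B cells that is lost in plasma cells. MS4A1 (chromosome 2, 11216238 to 11229060, minus strand) had values of 2.41, 2.10, 5.15, 4.30, 8.24, 3.19 and 8.71 in the low iCrit gilts. In the high iCrit gilts its values were 5.78, 19.0, 1.73, 1, 1, 1, 3.07 and 8.92. It stood at the floor in 0 of 7 low and 3 of 8 high iCrit gilts, yet the highest value, in replicate 2, was also in the high iCrit group. Those values stand for 1 to 4 fragments in a low iCrit library and 0 to 8 in a high iCrit library. A count of 0 allows up to 3 fragments, which is a value of 6.57, 5.995 and 5.5998 in high iCrit replicates 4, 5 and 6, so these gilts cannot be set below most of the low iCrit gilts at this depth. The 8 fragments of high iCrit replicate 2 had an exact 95% Poisson interval of 3.45 to 15.8. Such intervals and limits cover counting error only, and fragments copied by PCR are not independent molecules. The log2 difference was 0.32 ± 0.50 (SE; 95% interval -0.74 to 1.37; adjusted p = 0.923), and without high iCrit replicate 2 it was 0.63 (adjusted p = 0.735). Without high iCrit replicate 4, 5 or 6, the gilts at the floor, it was 0.16 each time, and with a pseudocount of 10 it was 0.035.

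PAX5, the transcription factor that holds B cell identity and is switched off in plasma cells (chromosome 1, 237574938 to 237785454, minus strand), was as sparse. Its values ran from 1 to 9.80 in the low iCrit gilts, with a median of 3.22, and from 2.19 to 8.03 in the high iCrit gilts, with a median of 4.95. Low iCrit replicate 1 was at the floor, where 0 fragments allow a value of up to 7.23, and the libraries held at most 4.5 estimated fragments. The log2 difference was -0.31 ± 0.32 (SE; 95% interval -0.99 to 0.38; adjusted p = 0.881). Leaving out low iCrit replicate 7 gave -0.52, and leaving out low iCrit replicate 1 gave -0.11.

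POU2AF1 encodes a coactivator that works with octamer-binding factors on antibody genes in B and plasma cells. POU2AF1 (chromosome 9, 39121422 to 39144636, minus strand) had values of 14.5, 63.1, 38.7, 31.1, 26.8, 60.6 and 50.1 in the low iCrit gilts. In the high iCrit gilts its values were 84.8, 66.7, 79.7, 59.2, 58.0, 18.7, 58.4 and 60.6. Of the high iCrit gilts, 7 lay between 58.0 and 84.8 and replicate 6 lay far below them, while the low iCrit gilts were spread over their whole range. The means were 40.7 ± 18.1 among low iCrit gilts and 60.7 ± 19.8 among high iCrit gilts (SD, n = 7 and 8). This was the member with the smallest p, a log2 difference of -0.60 ± 0.35 (SE; 95% interval -1.35 to 0.14), and it did not pass the test (adjusted p = 0.751; exact permutation p = 0.117). Leaving out 1 library at a time moved it between -0.83, without high iCrit replicate 6, and -0.39, without low iCrit replicate 1.

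JCHAIN links antibody units into the joined forms that PIGR can bind. JCHAIN (chromosome 8, 67439405 to 67448628, minus strand) had values of 740, 2719, 2124, 2785, 1650, 3721 and 772 in the low iCrit gilts. In the high iCrit gilts its values were 1666, 1737, 1249, 3825, 2483, 1575, 1146 and 1159. The 2 lowest gilts were both low iCrit (replicates 1 and 7), and the highest gilt of each group, low iCrit replicate 6 and high iCrit replicate 4, reached nearly the same level. The libraries held 307 to 2594 estimated JCHAIN fragments, and the highest JCHAIN value was 5.17 times the lowest. The means were 2073 ± 1102 among low iCrit gilts and 1855 ± 907 among high iCrit gilts (SD, n = 7 and 8), which is a log2 difference of 0.06 ± 0.36 (SE; 95% interval -0.69 to 0.81; adjusted p = 0.980). On the log2 scale the SD within groups was 0.76, higher than that of 81.3% of the genes tested.

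TNFRSF17 encodes BCMA, the receptor through which plasma cells receive survival signals. TNFRSF17 (chromosome 3, 31137672 to 31141862, minus strand) ran from 22.7 to 120 in the low iCrit gilts, with a median of 82.0, and from 24.3 to 114 in the high iCrit gilts, with a median of 55.2. The groups covered nearly the same range. The log2 difference was 0.09 ± 0.39 (SE; 95% interval -0.74 to 0.92; adjusted p = 0.976). A gene annotated on the other strand overlaps TNFRSF17 by 1870 bases and was listed at the floor in all 15 libraries.

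MZB1 encodes a helper protein of the endoplasmic reticulum that aids antibody folding and secretion. MZB1 (chromosome 2, 141277541 to 141279652, minus strand) had values of 60.3, 96.8, 78.6, 167, 76.2, 328 and 54.4 in the low iCrit gilts. In the high iCrit gilts its values were 137, 99.98, 123, 722, 77.9, 793, 79.9 and 93.6. High iCrit replicates 4 and 6 stood above every other gilt of either group, and the 6 other high iCrit gilts lay within the range of the low iCrit gilts. MZB1 varied most among the well counted members, 14.6-fold between gilts. The log2 difference was -0.71 ± 0.56 (SE; 95% interval -1.90 to 0.47; adjusted p = 0.830), and it was -0.41 and -0.39 without high iCrit replicates 4 and 6, left out in turn.

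The other plasma cell genes took various levels in these 2 gilts, and their levels there are given as values without a test. High iCrit replicate 4 had the highest JCHAIN value of the 15 gilts, 3825, but its TNFRSF17 value, 57.0, was near the group median. DERL3, an endoplasmic reticulum gene of plasma cells named after its values were seen, was highest of the 15 gilts in that gilt, at 563, with 207 the next value. High iCrit replicate 6 had the lowest TNFRSF17 (24.3) and the lowest POU2AF1 (18.7) of its group, and its JCHAIN value, 1575, was below the group median of 1621. SDC1, a surface marker of plasma cells and epithelium likewise named after its values were seen, was 1650 there, behind low iCrit replicates 6 and 1 at 3542 and 1736. MZB1 lies between PROB1 and SLC23A1, all on the minus strand. The annotated span of SLC23A1, a vitamin C transporter gene, overlaps that of MZB1 by 15 bases. The span of PROB1 ends 599 bases upstream of MZB1. A gene annotated on the other strand overlaps MZB1 by 2112 bases, its whole annotated span, and was listed at the floor in all 15 libraries. On the deposited scale, which is not per length, MZB1 was 4.46% to 12.7% of the PROB1 value (median 7.77%) and 4.05% to 19.2% of the SLC23A1 value (median 8.79%).

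PROB1 and SLC23A1 were highest in the same 2 gilts as MZB1. PROB1 stood at 6968 and 6791 and SLC23A1 at 7522 and 8077 in high iCrit replicates 4 and 6, while the 13 other gilts reached at most 2664 for PROB1 and 2388 for SLC23A1. Across the 15 gilts MZB1 followed PROB1 with r = 0.91 (permutation p = 1e-05, the smallest that 100000 permutations can give; Spearman rho = 0.79, permutation p = 0.0007). Without high iCrit replicates 4 and 6 it was r = 0.72 (permutation p = 0.00641, n = 13), and within groups it was 0.76 among low iCrit gilts (exact permutation p = 0.0573) and 0.96 among high iCrit gilts (exact permutation p = 0.00166). With SLC23A1, r was 0.87 (permutation p = 0.00046; rho = 0.71, permutation p = 0.00424), and that relation rests on the same 2 gilts, since r fell to 0.48 without them (permutation p = 0.106). These 2 relations, with the 3 of MS4A1 given further on, were chosen after the values were seen, and over these 5 their adjusted p were 5e-05 for PROB1 and 0.000767 for SLC23A1. Whether fragments of PROB1 or SLC23A1 were counted for MZB1 was not tested, and the libraries are not stated to keep strand. SLC23A1 and PROB1 themselves did not pass the test between low and high iCrit gilts (log2 differences of -0.45 ± 0.50 and -0.64 ± 0.45, SE; adjusted p = 0.887 and 0.804).

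**Figure D2:**
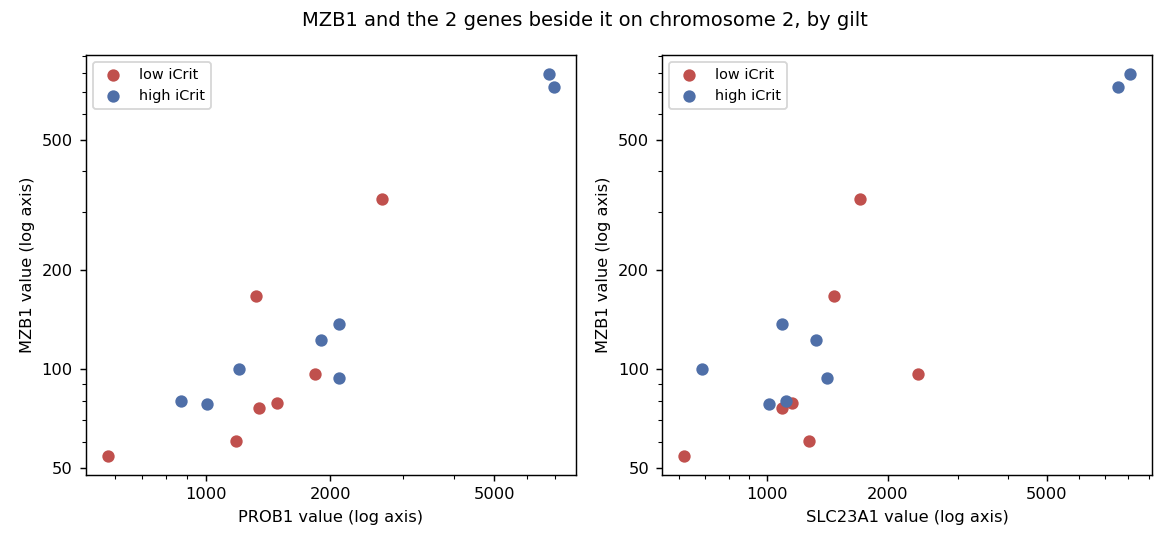
MZB1 value against PROB1 (left panel) and SLC23A1 (right panel) in the same gilt, log axes, 1 point a gilt, low iCrit in red and high iCrit in blue. High iCrit replicates 4 and 6, with MZB1 at 722 and 793, are the 2 highest points for all 3 genes.

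PIGR encodes the receptor that binds joined IgA and IgM on the basal side of epithelial cells and delivers it to the lumen. PIGR (chromosome 9, 67553094 to 67574698, minus strand) had values of 1459, 2106, 1688, 2068, 682, 3270 and 2315 in the low iCrit gilts. In the high iCrit gilts its values were 1932, 1833, 2003, 908, 1966, 3197, 1810 and 1788. Of the high iCrit gilts, 6 lay between 1788 and 2003, with replicate 4 below and replicate 6 above them, and the low iCrit gilts were spread more evenly over the same range. The means were 1941 ± 799 among low iCrit gilts and 1930 ± 621 among high iCrit gilts (SD, n = 7 and 8). The log2 difference was -0.05 ± 0.28 (SE; 95% interval -0.65 to 0.55; adjusted p = 0.979; exact permutation p = 0.864), which as a fold is 0.965 with an interval of 0.636 to 1.46. The libraries held 331 to 2052 estimated PIGR fragments.

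**Figure D3:**
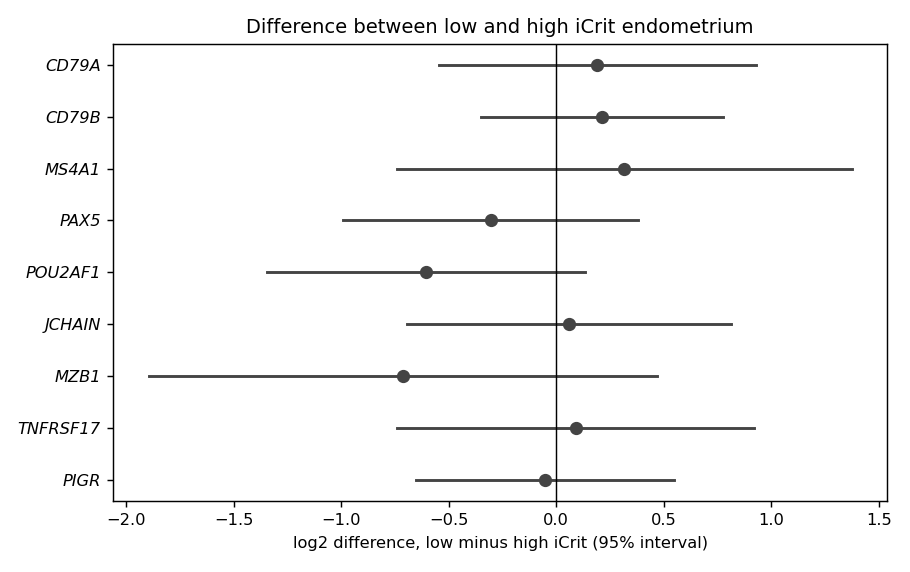
Log2 difference of each gene, low minus high iCrit (points), with its 95% interval from limma (lines). All 9 intervals include 0; they are narrowest for CD79B, -0.35 to 0.77, and widest for MZB1, -1.90 to 0.47.

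No antigen receptor segment found by symbol, of antibody or T cell receptor genes, gave a value above the floor. Of the 137 antigen receptor segments in the RefSeq gene table (16 constant and 121 variable segments, of immunoglobulin and T cell receptor genes), 80 were found in the mRNA table by symbol, and all 80 were at the floor in all 15 libraries. With JCHAIN at 740 or more in every gilt, nothing about antibody is read from these floor values.

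Of 20 other B cell genes listed, 16 were tested, 4 with a difference above and 12 below 0, and 0 had an unadjusted p under 0.05; their median log2 difference was -0.04, beside -0.01 over all genes tested, of which 51.7% were below 0. Without high iCrit replicate 2 the split was 8 above and 8 below 0, and without high iCrit replicate 8 it was 9 above and 7 below 0. FCER2 was at the floor in all 15 libraries, TCL1A was under the filter, and CR2 and FCRL1 were not analysed here. By smallest p, the named genes are CD40, a receptor for T cell help (286 ± 34.7 among low and 412 ± 157 among high iCrit gilts, SD; adjusted p = 0.708), BACH2, which restrains plasma cell maturation (498 ± 148 and 408 ± 118; adjusted p = 0.819), and VPREB3 (18.2 ± 9.14 and 12.4 ± 6.20; adjusted p = 0.828). None of them passed the test.

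The signalling chain below the B cell receptor, most of it shared with other blood cells, gave 8 of 17 genes above and 9 below 0, with a median of -0.02, and 12 above and 5 below 0 without high iCrit replicate 2 (median 0.05). PTPN6, the phosphatase SHP-1 that dampens receptor signals, averaged 1457 ± 228 among low iCrit gilts and 1751 ± 227 among high iCrit gilts (SD; log2 difference -0.27 ± 0.11, SE; unadjusted limma p = 0.0286, exact permutation p = 0.0283, adjusted p = 0.672). VAV2 and BLNK followed it by p, with adjusted p of 0.781 and 0.809. Germinal centres are the sites where B cells mutate and switch their antibody genes. Of the 5 tested genes of that list, 4 were above and 1 below 0 (median 0.28), led by BCL6 (2495 ± 226 among low and 2106 ± 505 among high iCrit gilts, SD; adjusted p = 0.719), MYBL1 (adjusted p = 0.745) and GCSAM (adjusted p = 0.834). BCL6 and MYBL1 are also expressed outside B cells.

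Plasma cells enlarge the secretory machinery of the endoplasmic reticulum, and most genes of that machinery are used by gland cells as well. Of 19 other plasma cell genes tested, which are genes of that machinery together with surface receptors and regulators, 6 were above and 13 below 0, with a median of -0.10 and 0 at an unadjusted p under 0.05. Without high iCrit replicate 4 there were 9 above and 10 below 0, with a median of -0.02. SSR4, a subunit of the translocon complex, averaged 2941 ± 699 among low iCrit gilts and 3646 ± 773 among high iCrit gilts (SD; adjusted p = 0.703), and PIM2 and TNFRSF13B had adjusted p of 0.797 and 0.811. SLAMF7 was not analysed here.

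Chemokines and cytokines that draw antibody-making cells to tissue or keep them alive gave 7 genes above and 15 below 0 among 22 tested, with a median of -0.14. Without high iCrit replicate 2 there were 10 above and 12 below 0, with a median of -0.03. TNFSF13, which encodes APRIL, a ligand of the receptor made by TNFRSF17, ran from 383 to 549 in low iCrit gilts, with a median of 490, and from 500.2 to 849 in high iCrit gilts, with a median of 592. The groups overlapped between 500.2 and 549. The means were 488 ± 57.0 among low iCrit gilts and 628 ± 125 among high iCrit gilts (SD, n = 7 and 8), which is a log2 difference of -0.35 ± 0.13 (SE; unadjusted limma p = 0.0180, exact permutation p = 0.00886), which did not pass over all genes (adjusted p = 0.672). CCL19 and CCL25 followed it, with adjusted p of 0.704 and 0.728. IL21 was at the floor in all 15 libraries and CCL20 was under the filter.

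CCL28, chosen for mention after its values were seen, encodes a chemokine that draws IgA plasma cells to mucosal surfaces. It ran from 379 to 3033 in low iCrit gilts, with a median of 1555, and from 342 to 6842 in high iCrit gilts, with a median of 1113. Its 2 highest values, 6842 and 5172, were in high iCrit replicates 4 and 6, the gilts in which MZB1, PROB1 and SLC23A1 were highest.

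Other genes of antibody transport gave no call either. Of 9 tested, 3 were above and 6 below 0, with a median of -0.05 (5 above and 4 below 0 without high iCrit replicate 2, median 0.01). FCGRT, the neonatal Fc receptor that moves IgG, ran from 6065 to 9532 in low and from 7512 to 10489 in high iCrit gilts. The 3 genes with the smallest p act in vesicle traffic of epithelial cells: RAB17 averaged 249 ± 181 among low iCrit gilts and 158 ± 143 among high iCrit gilts (SD; adjusted p = 0.758), and RAB25 and RAB11A had adjusted p of 0.817 and 0.893. FCAMR was under the filter.

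Cytokines such as IL-17, interferon gamma and TNF are known to raise PIGR in epithelial cells, through receptors and factors that include NF-kB. Of 20 tested genes of these signals, 6 were above and 14 below 0, with a median of -0.10, and IL17A was at the floor in all 15 libraries. TNF ran from 6.37 to 14.7 in low iCrit gilts, with a median of 7.73, and from 6.57 to 76.2 in high iCrit gilts, with a median of 14.2. Its highest value was in high iCrit replicate 2. The log2 difference of TNF was -0.91 ± 0.43 (SE; unadjusted limma p = 0.0486, exact permutation p = 0.0485, adjusted p = 0.700), and without that gilt it was -0.60 (unadjusted limma p = 0.0863). IFNGR2 and TLR3 had adjusted p of 0.765 and 0.817.

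Markers of other cell types were counted beside these genes, and their part in the members' levels was not tested. The T and NK cell markers summed to 2101 to 5237 in low and 2171 to 7676 in high iCrit gilts. Of 21 tested, 9 were above and 12 below 0, with a median of -0.02. Without high iCrit replicate 2, and likewise without high iCrit replicate 8, the split was 13 above and 8 below 0 (median 0.07 each time). CD247, CD3E and CD8B had the smallest p, with adjusted p of 0.837, 0.859 and 0.861. The myeloid markers (14 tested, 11 above and 3 below 0, median 0.04; 5 above and 9 below 0 without high iCrit replicate 4 or 7, and with library quality weights) summed to 8769 to 16776 in low and 7632 to 18086 in high iCrit gilts, and ITGAM (adjusted p = 0.672), LYZ (0.778) and MRC1 (0.818) had the smallest adjusted p. ITGAX was at the floor in all 15 libraries. The erythroid markers, which follow blood in the tissue (5 tested, 1 above and 4 below 0, median -0.58), summed to 902 to 3702 in low and 862 to 4921 in high iCrit gilts, with AHSP, HBB and ALAS2 at adjusted p of 0.755, 0.791 and 0.832.

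The epithelial markers bear on PIGR, which epithelial cells make. Of 13, 1 was above and 12 were below 0, with a median of -0.15, and their sum ran from 112842 to 194482 in low and from 143611 to 205782 in high iCrit gilts. CLDN3, a tight junction protein, averaged 7301 ± 1387 among low iCrit gilts and 9143 ± 1205 among high iCrit gilts (SD; log2 difference -0.34 ± 0.12, SE; unadjusted limma p = 0.0153, exact permutation p = 0.0176, adjusted p = 0.672), and FOXA2 and KRT19 had adjusted p of 0.703 and 0.771. Across gilts PIGR did not follow EPCAM (r = -0.34, permutation p = 0.228; rho = -0.54, permutation p = 0.0392, adjusted p = 0.456 over 51 relations).

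No pair of the 9 members passed the test of correlation across gilts, which does not show that their levels are unrelated. Of the 36 pairs among them, 20 had an r above 0 and 16 below 0, and neither r nor rho passed an adjusted p under 0.05 for any of the 51 relations examined (the 36 pairs, and CD79A, JCHAIN and PIGR each with CD3E, CSF1R, EPCAM, HBB and miR-150). At an unadjusted p under 0.05 stood 2 of the 51 by Pearson and 5 by Spearman. A library held at most 20 estimated fragments of CD79A, 8 of MS4A1 and 4.5 of PAX5. Counting error therefore limits what every relation with 1 of these genes can show. The pair with the highest r was JCHAIN with MZB1, both of plasma cells, at r = 0.56 (permutation p = 0.0311, adjusted p = 0.769; rho = 0.56), and r was 0.35 without low iCrit replicate 1 and high iCrit replicate 4. CD79B and PAX5, both of B cells, had the lowest r, -0.52 (permutation p = 0.0495, adjusted p = 0.769). CD79A with JCHAIN gave r = 0.51 (permutation p = 0.0524) and PAX5 with PIGR r = 0.46 (permutation p = 0.0839). JCHAIN and PIGR, whose products meet during transport, had r = 0.00 (permutation p = 0.999) and rho = 0.15.

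**Figure D4:**
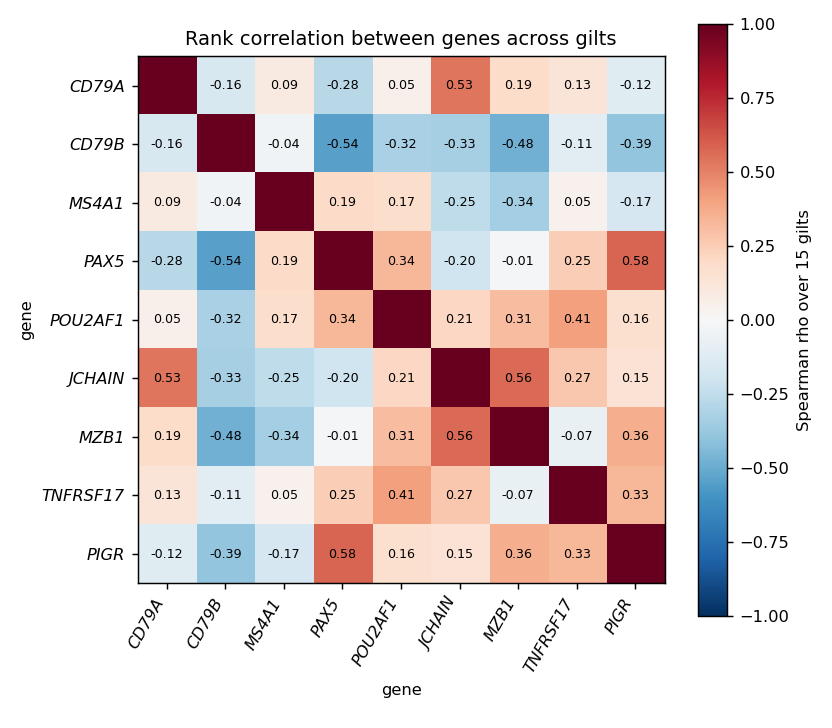
Spearman rank correlation between each pair of genes over the 15 gilts, from -1 (blue) to 1 (red), with the value in each cell. The values run from -0.54 (CD79B with PAX5) to 0.58 (PAX5 with PIGR), and none of the 36 pairs passed the adjusted threshold.

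MS4A1 followed measures of lymphocytes, in relations chosen after the values were seen. miR-150 is a miRNA abundant in mature B, T and NK cells, and CD3E is part of the T cell receptor complex. miR-150 ran from 1049 to 1739 in low iCrit gilts, with a median of 1418, and from 1040 to 2641 in high iCrit gilts, with a median of 1308. High iCrit replicates 2 and 8, the 2 gilts with the highest MS4A1, had the highest miR-150 (2641 and 2622). MS4A1 and miR-150, measured in separate libraries of the same gilt, had r = 0.85 (permutation p = 5e-05, adjusted p = 0.000125 over the 5 added relations; rho = 0.82, permutation p = 0.00032), and r was 0.79 without these gilts (permutation p = 0.00153). Within groups r was 0.80 in low iCrit gilts (exact permutation p = 0.0339) and 0.93 among the high iCrit gilts (exact permutation p = 0.000595). MS4A1 with CD3E gave r = 0.69 (permutation p = 0.00406, adjusted p = 0.00507; rho = 0.61, permutation p = 0.0190), but 0.41 without the same 2 gilts (permutation p = 0.167), so that relation rests on them. The adjusted p cover the 5 added relations only, and not the search that found them. The planned relations of CD79A, JCHAIN and PIGR with miR-150 had r of 0.17, -0.28 and -0.08 (permutation p = 0.532, 0.315 and 0.787). With CD3E their r were 0.20, -0.03 and 0.30 (permutation p = 0.468, 0.913 and 0.270). The MS4A1 relations rest on 38 estimated MS4A1 fragments.

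MS4A1 also shares 2915 bases with MS4A4A, a macrophage gene annotated on the other strand. MS4A4A stood at 249.96 in high iCrit replicate 2 and at 15.4 to 64.2 elsewhere. Its r with MS4A1 was 0.64 (permutation p = 0.00846, adjusted p also 0.00846; rho = 0.48, permutation p = 0.0705), 0.25 without high iCrit replicates 2 and 8 (permutation p = 0.413), and -0.52 within the low iCrit group (exact permutation p = 0.229). Without stated strand in the counting, fragments in the shared bases cannot be told apart.

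**Figure D5:**
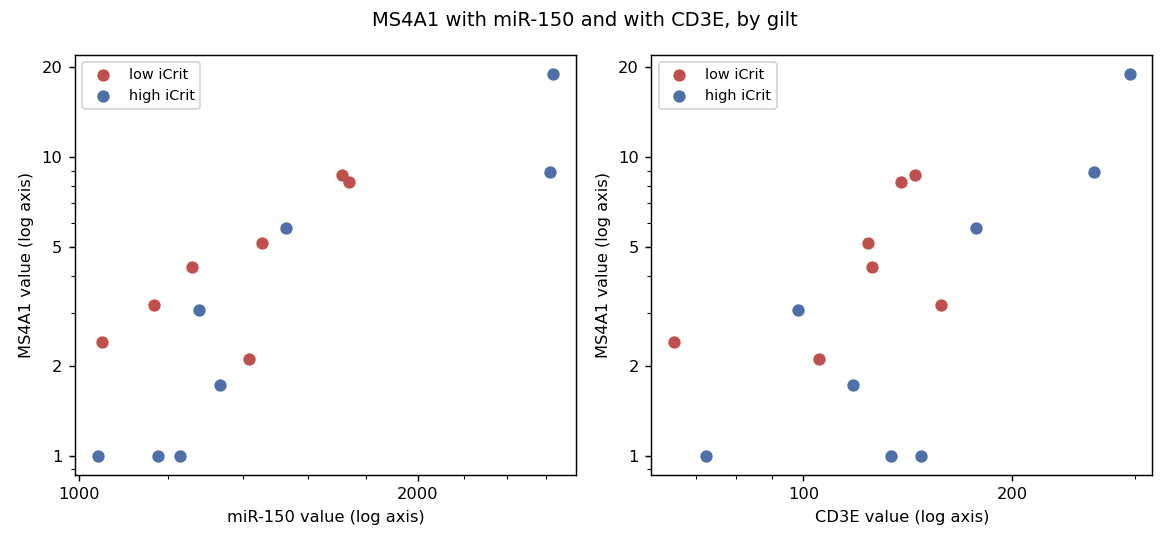
MS4A1 value against miR-150 (left panel) and CD3E (right panel) of the same gilt, log axes, 1 point a gilt, low iCrit in red and high iCrit in blue. The 2 gilts with miR-150 at 2641 and 2622 have the 2 highest MS4A1 values, 19.0 and 8.92, and the 3 gilts at an MS4A1 value of 1 are at the floor.

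High iCrit replicate 2, the gilt with the highest MS4A1, also held the highest values of several genes of lymphoid tissue, which are named here after their values were seen. CXCL13, which draws B cells into follicles, was 3163 there. CCR7, a homing receptor of lymphocytes and dendritic cells, was 78.6, against 2.10 to 22.5 in the 14 other gilts. CD72, a B cell surface protein, was 148, against 12.1 to 48.4, and BANK1, a B cell scaffold protein, was 576, against 145 to 355. CD79B (50.0) had its lowest value of the high iCrit gilts there, and CD79A (21.4) was within the range of the other gilts.

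By Spearman rho over the 15 libraries, the 6 genes most like a member were listed for CD79A, JCHAIN and PIGR as a description. For CD79A they were SCRN1 (rho = 0.85), GAL, KDELC1, SLC22A23, HAUS7 and CCR3 (0.71). For JCHAIN they were ALG1 (0.86), EXOC4, TRIL, PDLIM3, C1QL3 and EIF4EBP2 (0.77), and for PIGR they were VTN (0.82), DLX4, GPR20, HSPB2, PRDM16 and SCARA3 (0.74). None of these 18 genes belongs to the B cell, plasma cell or transport lists used here. With 15126 genes ranked over 15 libraries, rho values of this size are the top of a long list.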

How the data were processed

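The mRNA values are a normalized signal that the authors deposited as 1 table, and the miRNA signal was deposited as a second one; the labels' protocols give poly(A) selection and paired-end reads of 50 bp from RNA of integrity 7.5 or more. No source used here gives the aligner, counter, build or scaling. Coordinates of the 9 members equal those of the Sscrofa11.1 RefSeq table. Rows were matched by symbol, and of list genes with several rows the row with the highest mean was used. Within 0.05 steps, 82.0% to 84.7% of low values were whole multiples of a library's commonest step, and 91.8% to 93.3% were multiples of 0.5 steps, so counts were not rebuilt and fragments are estimates.

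Values were tested as log2(value + 1), which understates changes of low genes, with limma 3.58.1 (R 4.3.3; intensity trend, no covariate) over 16819 genes above the floor of 1 in at least 7 libraries, with Benjamini-Hochberg adjustment and a threshold of 0.05. The script was tested on simulated data. The exact permutation test was two-sided over all 6435 placements of the labels. Correlations used log2(value + 1), 100000 two-sided permutations over all gilts and exact ones within groups (Python 3.11.15, scipy 1.17.1). The libraries are separate animals, numbered in the order of their records; mRNA and miRNA libraries of a gilt share an animal number. The members and lists were chosen with earlier results of these data known. Of each list the text names the 3 genes with the smallest p and defining genes at the floor. Alternatives were other pseudocounts, filters, scalings, weights, a depth covariate and libraries left out. All per-sample columns were mapped (0 unmapped). Some genes of the lists are not reported here.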

Additional observations from a re-analysis of the deposited data

Results flagged for a closer look

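In 18 sets of values (9 genes in 2 groups), 4 libraries lay apart from the rest of their group by Dixon's gap on the log2(value + 1) scale, where chance flags about 1 in 20 sets. CD79A was 7.23 in low iCrit replicate 1, the lowest of the low iCrit gilts, with a gap of 0.609 of the group's log2 range. CD79A was 3.46 in high iCrit replicate 3, the lowest of the high iCrit gilts, with a gap of 0.615. Those values stand for 3 and 2 estimated fragments. POU2AF1 was 18.7 in high iCrit replicate 6, below the other high iCrit gilts, with a gap of 0.746. PIGR was 908 in high iCrit replicate 4, with a gap of 0.538, in a gilt with high MZB1, CCL28 and JCHAIN. On the linear scale of the printed values, POU2AF1 alone of these 4 is past Dixon's 95% critical value, with a gap of 0.595. The linear gaps were 0.487 and 0.419 for CD79A and 0.384 for PIGR. Linear gaps were computed for these 4 only, so they do not show which other sets would be flagged on that scale.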

How the results depend on the processing

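Under all alternatives run, 0 genes had an adjusted p under 0.05, and over 222 alternative values of the members the lowest adjusted p was 0.343, for POU2AF1. Of those values, 206 had the main direction and 16 did not. JCHAIN was -0.15 with estimated depth as a covariate and -0.23 without low iCrit replicate 2 and high iCrit replicates 7 and 8, 3 libraries that an earlier analysis set apart. TNFRSF17 was -0.18 without these 3 and -0.083 with library quality weights. Leaving out 1 library at a time gave -0.056 to 0.37 for CD79A (below 0 without high iCrit replicate 3), 0.11 to 0.33 for CD79B, 0.16 to 0.63 for MS4A1, -0.52 to -0.11 for PAX5, -0.83 to -0.39 for POU2AF1, -0.995 to -0.39 for MZB1, -0.12 to 0.27 for JCHAIN, -0.088 to 0.33 for TNFRSF17 and -0.20 to 0.18 for PIGR. The cause of each change was not tested. CD79A, MS4A1 and PAX5 were under a filter at a mean of 50 and have no value there. CD79A with CD79B turned to r = 0.0032 with median centring and JCHAIN with PIGR to -0.025 without the 3 libraries. Quantile normalization changed the genes at an unadjusted p under 0.05 to 600 higher and 603 lower, against 455 higher and 745 lower in the deposited scaling. Medians of 5 lists changed sign in 2 to 6 of 25 alternatives, those of the other B cell genes, receptor signalling, other transport genes, and T and NK and myeloid markers; those of the 6 other lists did not. Without 1 library at a time, the members above 0 numbered 4 to 9 of 16 for the other B cell genes, 5 to 12 of 17 for receptor signalling, 4 to 9 of 19 for plasma cell genes, 6 to 10 of 22 for homing, 1 to 5 of 9 for transport, 6 to 13 of 21 for T and NK markers, 5 to 11 of 14 for myeloid and 0 to 4 of 13 for epithelial markers. Depth limits MS4A1, PAX5 and CD79A. No paired analysis was possible because the groups hold different gilts and replicate numbers only name them. A comparison of promoter motifs was not run, since no sequences were used here.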
